A study of Homo sapiens with 6 samples.

Results

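The heat shock protein genes examined here were 10 of the 62492 genes listed for each library, taken by symbol through their Ensembl identifiers. They were HSPA1A, HSPA1B and HSPA8 of the HSP70 family, HSPH1 and DNAJB1, which work with HSP70, HSP90AA1 and HSP90AB1 of the HSP90 family, the small heat shock protein HSPB1, and the mitochondrial chaperonin pair HSPD1 and HSPE1. All 10 passed the filter on low counts that left 17000 genes for testing. PolyA RNA was sequenced from HCT116, a line of human colorectal carcinoma cells, after transfection of siRNA at 20 nM with Lipofectamine RNAiMAX. The siControl group, whose genotype is given as WT, and the siNONO group, given as NONO knockdown, had 3 libraries each, numbered as Sets 1, 2 and 3 with 1 library of each group in a Set. NONO is an RNA-binding protein of paraspeckles. The siNONO group rests on 1 siRNA duplex, so an effect of NONO loss and an effect of that duplex cannot be told apart. The labels name no heat treatment, and the time of harvest was not given in the sources used here, so the values are levels without an applied heat stress.

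Knockdown of NONO was followed by small changes of these genes in both directions. HSPA1B, a heat-induced HSP70 gene, fell by 27.4% and was the member with the largest fitted change among those called. HSP90AA1 fell by 9.84%, and HSPH1 fell by 8.54%, a call that was lost under 3 of 18 alternative ways of testing. HSPB1, HSPE1 and HSPA8 were called higher on the scale of read counts alone, by 12.5%, 10.9% and 5.07%. When the test was run on length-scaled TPM none of these 3 was called, with log2 fold changes of 0.094, 0.075 and -0.023, and with an offset for transcript length HSPB1 and HSPE1 were not called either, at 0.079 and 0.034. HSPA1A, DNAJB1, HSP90AB1 and HSPD1 did not pass the test on counts. On TPM, DNAJB1 and HSPD1 were called lower, at -0.17 and -0.14, where the median over all genes tested was -0.071.

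Heat shock proteins are molecular chaperones. They bind unfolded or aggregating proteins and help them fold, refold or go to degradation. HSP70 proteins bind short hydrophobic stretches in a cycle driven by ATP, in which J-domain proteins such as DNAJB1 start ATP hydrolysis and exchange factors such as HSPH1 release the nucleotide. HSP90 proteins act later, on nearly folded clients such as kinases and steroid receptors, and tumour cells are known to depend on them. Each of these families in the cytosol has members made at all times and members induced by stress, and the induction runs through HSF1, a transcription factor that forms a trimer on heat shock elements, which are alternating GAA and TTC units in the promoters.

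The promoter sequences are shown because HSF1 is known to act on heat shock genes through these elements. They come from RefSeq on GRCh38.p14, a different build from that of the counts, in windows of 300 bases from 250 bases before each annotated start. All 10 genes matched, with 16 windows, since some genes have several annotated starts. A pair of units was searched as GAANNTTC or TTCNNGAA, each of which reads the same on both strands, and a run of 3 units as GAANNTTC followed by NNGAA or TTCNNGAA followed by NNTTC, so that each run of 3 also holds pairs. In the lines that follow, capitals mark the matched units and each stretch is written 5′ to 3′ on the strand of its gene. HSPA1A and HSPA1B are shown in full to their starts, since they are near-copies.
HSPA1A, chr6:31815293-31815542, plus strand: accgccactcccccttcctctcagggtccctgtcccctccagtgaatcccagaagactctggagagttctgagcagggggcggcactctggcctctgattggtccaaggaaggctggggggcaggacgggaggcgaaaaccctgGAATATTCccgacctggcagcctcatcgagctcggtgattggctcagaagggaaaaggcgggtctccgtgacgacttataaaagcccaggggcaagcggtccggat
HSPA1B, chr6:31827488-31827737, plus strand: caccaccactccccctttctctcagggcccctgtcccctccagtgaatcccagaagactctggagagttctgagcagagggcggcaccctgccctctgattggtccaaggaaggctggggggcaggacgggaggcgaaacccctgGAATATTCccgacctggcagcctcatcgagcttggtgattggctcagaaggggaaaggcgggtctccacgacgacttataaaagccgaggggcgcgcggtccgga
The other stretches hold elements of the remaining members with a match, and for HSPA8 the nearer of its 2 runs to the start.
HSPA8, chr11:123062146-123062225, minus strand: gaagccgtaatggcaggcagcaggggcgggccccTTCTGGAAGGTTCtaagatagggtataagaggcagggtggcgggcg
HSP90AB1, chr6:44247771-44247850, plus strand: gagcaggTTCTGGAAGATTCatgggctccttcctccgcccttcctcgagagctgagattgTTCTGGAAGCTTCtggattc
HSP90AA1, chr14:102087087-102087166, minus strand: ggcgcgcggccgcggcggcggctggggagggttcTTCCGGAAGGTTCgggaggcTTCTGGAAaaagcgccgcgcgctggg
DNAJB1, chr19:14518416-14518495, minus strand: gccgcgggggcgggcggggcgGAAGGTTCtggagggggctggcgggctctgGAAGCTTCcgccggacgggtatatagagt
HSPB1, chr7:76302455-76302534, plus strand: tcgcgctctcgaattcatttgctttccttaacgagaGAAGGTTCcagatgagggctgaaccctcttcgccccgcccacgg
HSPD1, chr2:197500011-197500090, minus strand: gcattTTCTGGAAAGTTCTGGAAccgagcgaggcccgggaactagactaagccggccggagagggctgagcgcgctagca

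A run of 3 units was found in HSPA8, HSP90AB1, HSP90AA1 and HSPD1, that is in 4 of the 10 genes, against 0.608% of the 27305 genes with a promoter window. A pair of units was found in 8 of the 10 genes, against 16.2% of all genes. HSPA8 and HSP90AB1 each held 2 separate runs of 3 units. HSPA1A and HSPA1B held 1 pair each, from 106 to 99 bases and from 105 to 98 bases before their starts, and over the 250 bases before the start the pair was identical at 235 of 249 aligned bases, or 94.4%. HSPH1 and HSPE1 had no match in their own windows. HSPD1 held 2 runs of 3 units that overlap, so that together they form 1 run of more than 3 units. This run, at chr2:197500068-197500085 of GRCh38.p14, lies between the start of HSPE1 and the one of the 2 annotated HSPD1 starts that is 539 bases from it. The genes are transcribed in opposite directions. The other HSPD1 start is 105 bases from that of HSPE1 and had no match in its window, and the run lies 189 bases downstream of it. The run ends 294 bases before the start of HSPE1, outside the window searched there. A match is a description of the letters and was not tested as a binding site. Only exact GAA and TTC units were searched, so an element with a changed base in a unit was not counted in any gene.

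**Figure D1:**
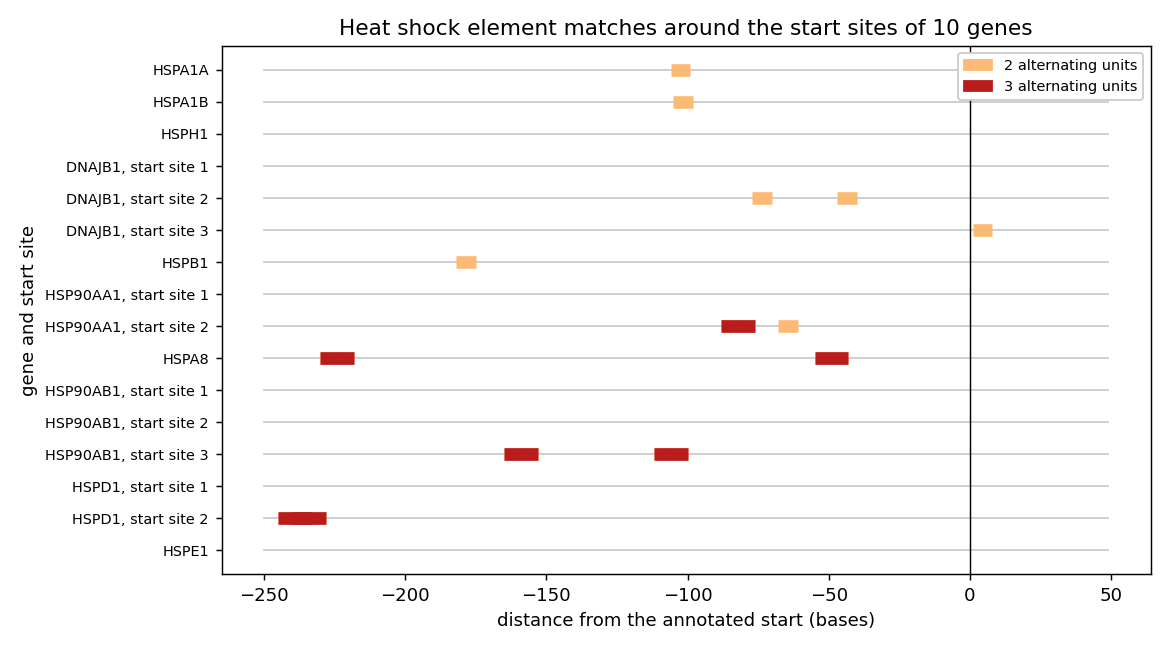
Positions of heat shock element matches in the 300-base window around each annotated start of the 10 genes, in bases from the start on the horizontal axis, with 1 row per start site. Orange blocks are pairs of alternating units and red blocks runs of 3 units, which stand in HSPA8, HSP90AB1, HSP90AA1 and HSPD1, while the rows of HSPH1 and HSPE1 hold none.

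NONO itself was checked first. Its level was 330 to 407 TPM in siControl and 75.5 to 81.7 TPM in siNONO, a log2 fold change of -2.40 (adjusted p = 2.47e-13). Adjusted p-values are Benjamini-Hochberg values over the 17000 genes from the quasi-likelihood F-test of edgeR on counts scaled by TMM, with the Set as a block, and a gene is called when its value does not exceed 0.05. Total estimated counts were 21765393 to 32659002 in siControl and 27946591 to 28715263 in siNONO. The share called was 46.6% of all genes tested, with 23.2% higher and 23.4% lower after knockdown. Of the 7 epithelial markers, 6 were at or above 1 TPM in every library and VIL1 was below it, with a summed level of 2880 to 3014 TPM in siControl and 2720 to 3010 TPM in siNONO. Of 7 markers of leukocytes, fibroblasts, endothelium and red cells, 5 (PTPRC, CD3E, COL1A2, VWF and HBB) were below 1 TPM throughout, and the list summed to 20.1 to 24.7 TPM in siControl and 22.7 to 24.9 TPM in siNONO, most of it COL1A1. Within these sums, on the log2 scale of counts, EPCAM of the epithelial list rose by 0.32 (adjusted p = 3.52e-06 by edgeR). KRT19 rose by 0.14 (adjusted p = 0.00731 by edgeR), though its groups overlapped in TPM, and CDH1, KRT8, KRT18 and CDX2 were not called. CD68, a macrophage marker, rose by 1.40 on that scale (adjusted p = 1.8e-05 by edgeR). In TPM CD68 was at 2.07, 3.40 and 5.52 in siControl and at 6.16, 6.29 and 6.31 in siNONO, with the smallest gap in Set 3. The part of EPCAM, KRT19 and CD68 in the changes of the 10 genes was not tested.

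The levels of the 10 genes spanned 3 orders of size on the length-scaled TPM scale, on which genes can be compared with each other. In siControl the order of mean TPM was HSP90AB1 at 2288 ± 44.8, HSP90AA1 at 1879 ± 126, HSPA8 at 1453 ± 18.3, HSPD1 at 1047 ± 72.2, HSPB1 at 768 ± 73.2, HSPE1 at 768 ± 26.4, HSPA1B at 159 ± 4.12, HSPH1 at 156 ± 4.57, DNAJB1 at 148 ± 2.82 and HSPA1A at 1.96 ± 0.133 (SD, n = 3). HSPB1 and HSPE1 overlapped each other, as did HSPA1B and HSPH1, and the remaining neighbours did not. HSP90AB1 ranked 42nd among all genes by mean TPM over the 6 libraries, and HSP90AA1, HSPA8, HSPD1, HSPB1 and HSPE1 were all within the top 160. In siNONO the order was the same except that HSPA1B, at 109 ± 9.70 TPM (SD, n = 3), stood below HSPH1 at 134 ± 5.40 TPM and DNAJB1 at 132 ± 5.53 TPM. Thus HSPA1B moved from the 7th to the 9th place. Together the 10 genes made up 0.848% to 0.888% of all TPM in siControl and 0.808% to 0.823% in siNONO.

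**Figure D2:**
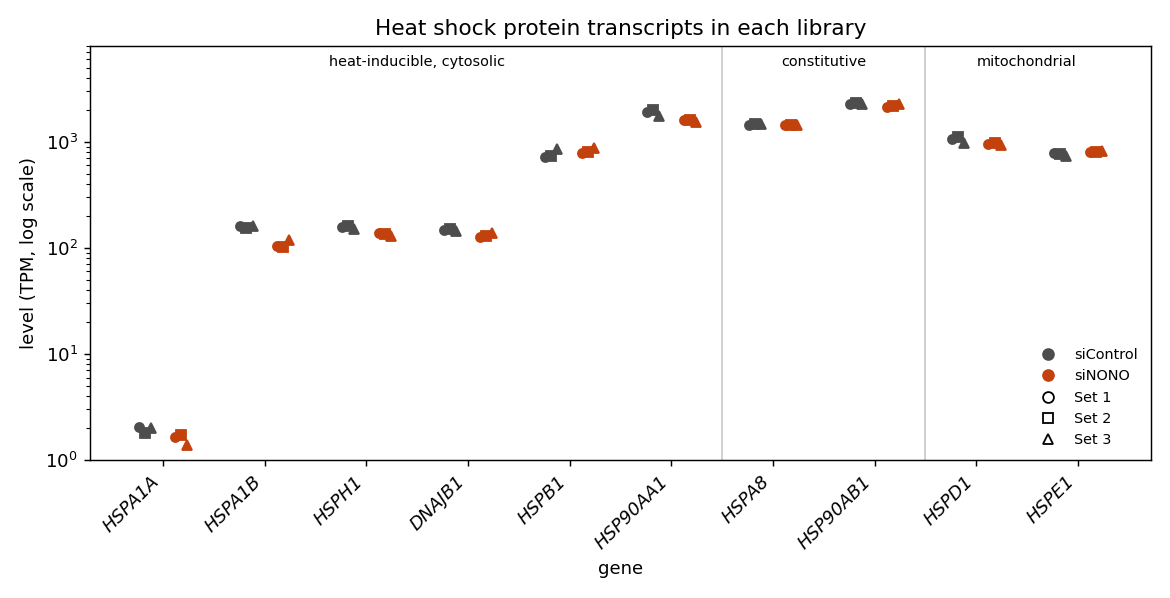
TPM of the 10 genes in each library on a log axis, grey for siControl and orange for siNONO, with a circle, square or triangle for Sets 1, 2 and 3. HSPA1B shows the widest gap, with siControl at 154 to 162 TPM and siNONO at 103 to 120 TPM.

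Of the 10 genes, 3 were called higher in siNONO on the count scale alone (HSPB1, HSPE1 and HSPA8, of which HSPA8 was at -0.023 in log2 TPM) and 3 lower (HSPA1B, HSP90AA1 and HSPH1), against the 46.6% of all genes tested that were called. Genes with more counts were measured more closely, with a median standard error of the log2 fold change of 0.0353 in the class described next and 0.0651 over all genes. Of the genes tested, 3666 averaged 6 or more in log2 CPM, the scaled counts per unit of library size, a class that holds all members but HSPA1A. In this class 70.2% of genes were called, 32.7% higher and 37.5% lower, and of its 9 members 6 were called, or 66.7%. The median size of the log2 fold change was 0.13 over these 9 members and 0.16 over the 3666 genes. The share of members called was thus near that of genes of like level, and their median change was not larger. The groups did not overlap in CPM for 4 members (HSPA1B and HSPH1 lower, HSPA8 and HSPE1 higher), against 47.8% of all genes tested, though the CPM gain of HSPA8 was absent in TPM. In TPM they did not overlap for 8 members, 7 of them lower in siNONO and HSPE1 higher, against 43.6% of all genes tested, with 29.4% lower. TPM divides by effective length and by the sum over all genes, and the mean effective length per transcript, which moved with the siRNA, was 1387 to 1413 bases in siControl and 1318 to 1346 bases in siNONO. Its part in the difference between the scales was not tested. Of all genes called, 49.7% were higher on the count scale and 31.3% in limma on log2(TPM + 1). The median log2 fold change over all genes tested was -0.0048 on the count scale and -0.071 in that limma fit. The TPM values given here for single genes are not corrected for this shift of the median.

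**Figure D3:**
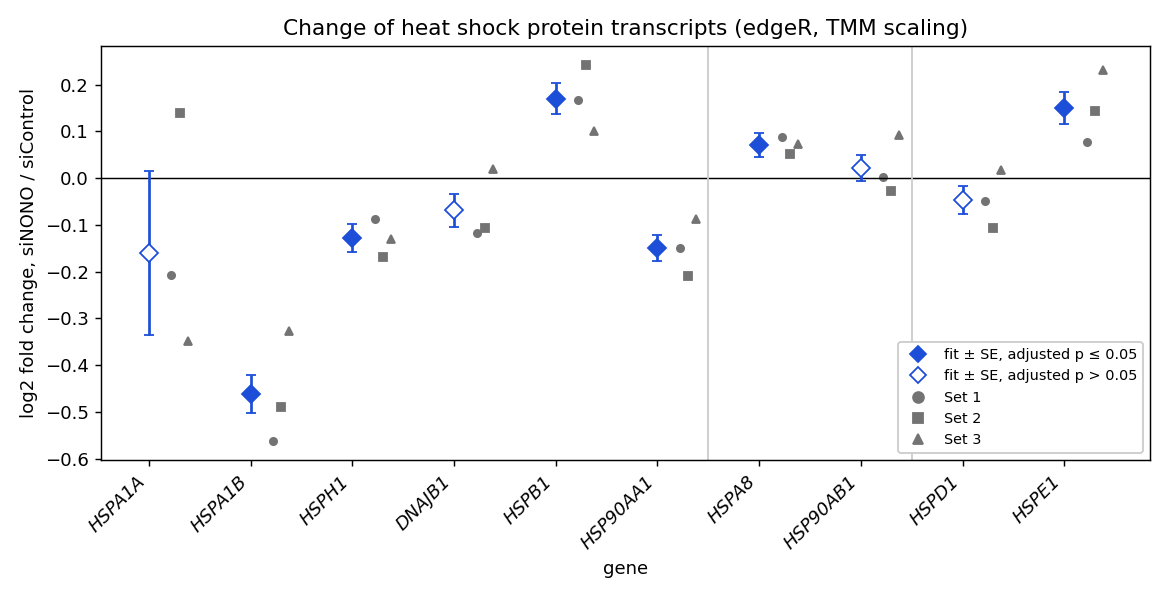
Log2 fold change of siNONO over siControl for each gene (diamonds, fit ± SE from edgeR with TMM scaling, filled at an adjusted p of at most 0.05) with the change in each Set beside it (grey circle, square and triangle for Sets 1, 2 and 3). HSPA1B lies lowest at -0.46 and HSPB1 highest at 0.17. HSPA8 and HSP90AB1 lie above 0 here and were below it, at -0.023 and -0.069 and uncalled, when TPM was tested, and HSPD1, uncalled, lies below 0 here and was at 0.0091 with an offset for GC content.

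HSPA1B and HSPA1A encode nearly the same stress-induced HSP70 protein from neighbouring genes on the plus strand of chromosome 6, at chr6:31795515-31798031 and chr6:31783320-31785723 of GRCh37, 9791 bases apart, each with 1 exon. HSPA1B was at 162, 154 and 161 TPM in siControl and at 103, 103 and 120 TPM in siNONO, Sets 1 to 3 in order. Every siNONO library lay below every siControl library, and Set 3 of siNONO was the nearest. The log2 fold change was -0.46 (95% interval -0.55 to -0.37, adjusted p = 1.48e-06 by edgeR), and in Sets 1, 2 and 3 it was -0.56, -0.49 and -0.33. Among the 3666 highly counted genes, 6.33% had a log2 fold change at or below that of HSPA1B. In bulk RNA, fewer cells with a transcript and less of it per cell cannot be told apart. HSPA1A was at 2.07, 1.81 and 1.99 TPM in siControl and at 1.64, 1.73 and 1.4 TPM in siNONO, from 64.6 to 105 estimated counts per library. All siNONO values were lower in TPM, while the count test gave a log2 fold change of -0.16 with an interval of -0.54 to 0.22 (adjusted p = 0.491 by edgeR), so a change as large as that of HSPA1B lies inside it.

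The division of reads between this pair is uncertain. Their main transcripts were identical at 2298 of 2390 aligned bases, or 96.2%, and 72.4% of all 100-base windows of HSPA1A and 68.9% of those of HSPA1B occurred exactly in the other gene. RSEM gave HSPA1A 1.01% to 1.2% of the summed count of the pair in siControl and 1.10% to 1.57% in siNONO. A long non-coding RNA listed as ENSG00000285565 (chr6:31796611-31807496 of GRCh37, plus strand), which begins inside HSPA1B, holds 822 of the 2418 windows of HSPA1B, and had 519 to 993 estimated counts in siControl and 333 to 744 in siNONO. This RNA fell by 0.64 on the log2 scale (SE 0.091, adjusted p = 9.42e-05 by edgeR). No other division of the reads was fitted. Sums do not depend on the division within them, and they cannot show the fall of HSPA1B by itself. For HSPA1A plus HSPA1B as 1 gene the log2 fold change was -0.46 (SE 0.0402, adjusted p = 1.4e-06 by edgeR), and with the non-coding RNA added it was -0.47 (SE 0.0371, adjusted p = 5.19e-07).

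HSPA8 encodes the constitutive cytosolic HSP70, also called HSC70 (chr11:122928197-122933938 of GRCh37, minus strand). Its level was 1432, 1468 and 1458 TPM in siControl and 1437, 1426 and 1426 TPM in siNONO. These values overlapped and lay within a narrow band. On the count scale it had 2019, 2128 and 2065 CPM in siControl against 2147, 2206 and 2173 CPM in siNONO, without overlap, and a log2 fold change of 0.071 (interval 0.016 to 0.13, adjusted p = 0.035 by edgeR), which was -0.023 in limma on log2(TPM + 1) with an adjusted p of 0.639. No 100-base window of its main transcript occurred in another gene compared. The call was also lost without the block for the Set (adjusted p = 0.172), with library size alone (adjusted p = 0.096) and without either library of Set 1 or of Set 2.

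DNAJB1, the J-domain protein that hands substrates to HSP70 and that heat induces strongly (chr19:14625581-14671203 of GRCh37, minus strand), was at 147, 151 and 145 TPM in siControl and at 127, 130 and 138 TPM in siNONO. The count test did not call it, with a log2 fold change of -0.069 (interval -0.14 to 0.0058, adjusted p = 0.122 by edgeR). Sets 1 and 2 were at -0.12 and -0.11 and Set 3 at 0.019, and without either library of Set 3 it was called lower, at -0.11 (adjusted p = 0.00794 without siControl and 0.00412 without siNONO). It was called lower in TPM too, at -0.17 (adjusted p = 0.0307 by limma), and with an offset for GC content, at -0.11 (adjusted p = 0.0138 by edgeR). HSPH1, an HSP110 protein that is both a nucleotide exchange factor of HSP70 and a holder of unfolded proteins (chr13:31709110-31736525 of GRCh37, minus strand), was at 158, 159 and 151 TPM in siControl and at 139, 134 and 128 TPM in siNONO. Every siNONO library lay below every siControl library in TPM and in CPM. Its log2 fold change was -0.13 (interval -0.19 to -0.064, adjusted p = 0.0032 by edgeR), and the call was lost without the block for the Set (adjusted p = 0.0593) and without siControl or siNONO of Set 2 (adjusted p = 0.102 and 0.0695).

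HSP90AA1, the stress-inducible cytosolic HSP90 (chr14:102547079-102606036 of GRCh37, minus strand), was at 1900, 1993 and 1744 TPM in siControl and at 1610, 1615 and 1543 TPM in siNONO. The groups were apart in TPM and overlapped in CPM, where siControl of Set 3 at 3692 CPM stood below siNONO of Set 2 at 3732 CPM. The change was lower within every Set, at -0.15, -0.21 and -0.087, and the log2 fold change was -0.15 (interval -0.21 to -0.088, adjusted p = 0.000786 by edgeR). HSP90AB1, the constitutive cytosolic HSP90 (chr6:44213903-44221625 of GRCh37, plus strand), was at 2264, 2340 and 2261 TPM in siControl and at 2137, 2154 and 2256 TPM in siNONO. Its log2 fold change was 0.022 on the count scale (interval -0.040 to 0.083, adjusted p = 0.569 by edgeR) and -0.069 in TPM (adjusted p = 0.242 by limma), and neither was called.

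HSPB1, also called HSP27, is a small heat shock protein that forms large oligomers and holds unfolding proteins without ATP (chr7:75931990-75933612 of GRCh37, plus strand). It was at 722, 728 and 852 TPM in siControl and at 776, 810 and 868 TPM in siNONO. The groups overlapped because siControl of Set 3 was high, yet siNONO was higher within each Set. The log2 fold change was 0.17 (interval 0.099 to 0.24, adjusted p = 0.000895 by edgeR), with 0.17, 0.24 and 0.10 in Sets 1, 2 and 3. It was not called without the block for the Set, at 0.17 (adjusted p = 0.0721), or in TPM, at 0.094 (adjusted p = 0.11 by limma).

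HSPD1, or HSP60, forms the barrel of the mitochondrial chaperonin, and HSPE1, or HSP10, forms its lid. Their genes lie head to head, and in GENCODE 44 on GRCh37 the full span of HSPD1, chr2:198351308-198381461 on the minus strand, takes in that of HSPE1, chr2:198364864-198368173 on the plus strand. HSPD1 was at 1056, 1114 and 970.5 TPM in siControl and at 953, 969 and 927 TPM in siNONO. Its count-based log2 fold change was -0.046 (interval -0.11 to 0.018, adjusted p = 0.224 by edgeR) and 0.0091 with an offset for GC content. It was called lower in TPM, at -0.14 (adjusted p = 0.0425 by limma), and without siControl or siNONO of Set 3, at -0.075 and -0.078 (adjusted p = 0.0209 and 0.00745 by edgeR). HSPE1 was at 790, 775 and 738 TPM in siControl and at 797, 802 and 825 TPM in siNONO. Every siNONO library lay above every siControl library, and the log2 fold change on the count scale was 0.15 (interval 0.075 to 0.23, adjusted p = 0.00326 by edgeR), with 0.078, 0.14 and 0.23 in Sets 1, 2 and 3. In TPM it was 0.075 and not called (adjusted p = 0.207 by limma), and with the offset for GC content it was 0.23 (adjusted p = 0.000303 by edgeR).

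HSPE1 and HSPB1 have the shortest transcripts of the 10 genes, 557 and 789 to 793 bases by RSEM's length, and in these libraries the change of genes moved with transcript length. Among the highly counted genes the median log2 fold change was 0.12 for 243 genes of 500 to 1000 bases, 0.034 for 836 genes of 1000 to 2000 bases and -0.074 for 1045 genes above 4000 bases. With an offset on this trend, added after the data were seen, the log2 fold change of HSPE1 was 0.034 (adjusted p = 0.391 by edgeR) and that of HSPB1 0.079 (adjusted p = 0.0802). HSPE1 shares exact sequence with the readthrough gene HSPE1-MOB4, which occurred in 20.5% of its 100-base windows and had 737 estimated counts over the 6 libraries, 2.16% of those of HSPE1. Pseudogenes took little of the counts of other members, with 0.194% of the count of HSPD1 in 4 pseudogenes and 0.0288% of that of HSPA8 in 4.

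To compare inducible with constitutive members per length and within a library, ratios of TPM were taken, which scaling between libraries does not touch. HSP90AA1 to HSP90AB1 was 0.839, 0.852 and 0.771 in siControl and 0.753, 0.750 and 0.684 in siNONO. The means were 0.821 ± 0.0433 and 0.729 ± 0.0391 (SD, n = 3), and the log2 ratio was lower in siNONO in 3 of 3 Sets, by a mean of -0.17 with an SD of 0.0144 over Sets. The summed level of HSPA1A and HSPA1B over that of HSPA8 was 0.114, 0.106 and 0.111 in siControl and 0.0729, 0.0734 and 0.0850 in siNONO. The means were 0.111 ± 0.00411 and 0.0771 ± 0.00685 (SD, n = 3), with a log2 difference of -0.53 (SD 0.129 over Sets), lower in 3 of 3 Sets. The mitochondrial pair, HSPD1 to HSPE1, was at 1.34, 1.44 and 1.31 in siControl and at 1.19, 1.21 and 1.12 in siNONO, a log2 difference of -0.21 (SD 0.0461 over Sets), again lower in 3 of 3 Sets. HSPD1 and HSPE1 differ in length, and with the offset for transcript length the difference between their count-based log2 fold changes was -0.086, against -0.20 without it, while that of HSP90AA1 from HSP90AB1 was -0.15 against -0.17. For each of the 3 ratios the groups did not overlap. The exact paired permutation test, two-sided, gave p = 0.25 for each, the smallest that 3 pairs allow, and an exact permutation of the 6 libraries gave p = 0.1, the smallest that 3 against 3 allow, so neither can reach 0.05 and an adjustment over the 3 ratios leaves them there.

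**Figure D4:**
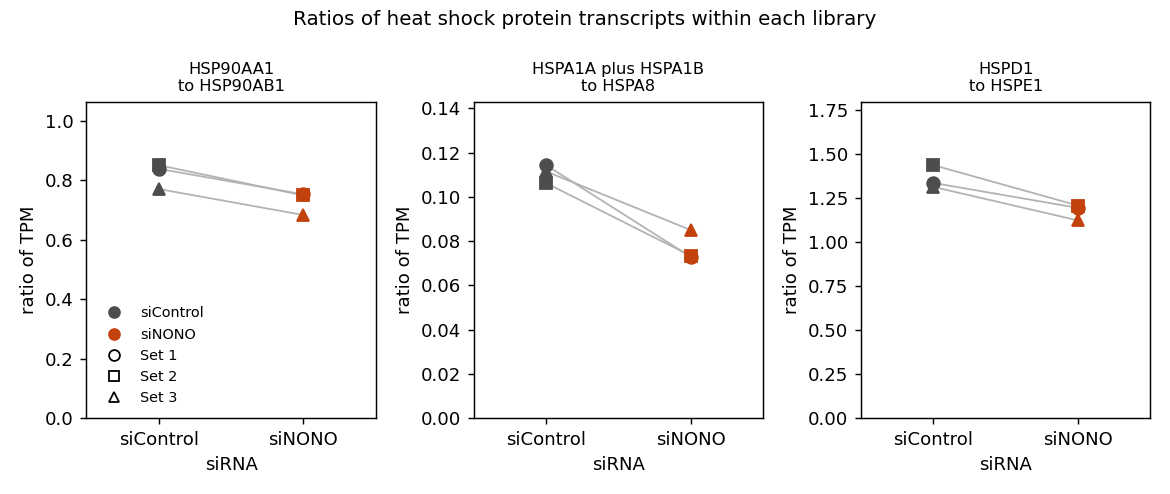
Ratio of TPM within each library for HSP90AA1 to HSP90AB1, HSPA1A plus HSPA1B to HSPA8, and HSPD1 to HSPE1, on axes that start at 0, with grey lines joining the siControl and siNONO library of a Set. All 9 lines run down from siControl to siNONO, with the largest relative fall in the HSP70 ratio, from a mean of 0.111 to 0.0771.

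Over the 6 heat-inducible cytosolic members (HSPA1A, HSPA1B, HSPH1, DNAJB1, HSPB1 and HSP90AA1) 3 were called lower, 1 higher and 2 neither, with a median log2 fold change of -0.14. Of all genes that averaged 6 or more in log2 CPM, the class of these members except HSPA1A, 37.5% were called lower and 32.7% higher. So few members cannot be told from that share. Over the constitutive HSPA8 and HSP90AB1 the median was 0.047 on the count scale, where TPM put both genes slightly below 0. The difference between the medians was -0.19, and it was -0.18, -0.15 and -0.19 in Sets 1, 2 and 3 (SD 0.021 over Sets). This is a description over members chosen for these roles, with no test. HSPB1 is the inducible member that went the other way.

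The other genes of the chaperone network were taken from lists by role, 86 of 96 of them with enough counts, and 37 were called higher, 26 lower and 23 neither, with a median log2 fold change of 0.084, against 23.2% higher and 23.4% lower over all genes and a median of -0.0048. Of the 55 that averaged 6 or more in log2 CPM, 31 were higher and 14 lower, or 56.4% and 25.5%, against 32.7% and 37.5% of all genes of that level. These are calls on the count scale, and ER chaperones made up 14 of the 37 genes called higher. HSF1, the main activator of the heat shock response, had a log2 fold change of 0.16 (adjusted p = 0.00125 by edgeR), which was not called without the block for the Set or in TPM, where it was 0.040. HSF2 and HSF4, related heat shock factors, were lower at -0.15 and -0.20 (adjusted p = 0.0241 and 0.0295), calls that were lost under 12 and 11 of 18 alternatives. HSBP1, a small protein that binds HSF1 trimers, was at -0.036 (adjusted p = 0.392), and in TPM it was called lower, at -0.26 (adjusted p = 0.0175 by limma). Of 14 further heat-inducible genes tested, 2 were higher, 6 lower and 6 neither, with a median of -0.079. This list overlaps those of the partners below, which also hold BAG3, DNAJA1, HSPA4L, CHORDC1, AHSA1, STIP1 and FKBP4. IER5, known to act with HSF1, fell by 0.39 on the log2 scale (adjusted p = 2.76e-05), and UBB, which encodes a ubiquitin precursor, was lower at -0.15 (adjusted p = 0.000455). HSPA4L, an HSP110 relative of HSPH1, rose instead, at 0.19 (adjusted p = 0.00535), a call that was lost without siControl or siNONO of Set 1, at 0.13 for each, and in TPM, at 0.11 (adjusted p = 0.214 by limma).

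Among the partners of cytosolic HSP70 and HSP90, the lists were mixed. Of 13 co-chaperones 5 were higher, 5 lower and 3 neither, with a median of 0.014. PTGES3, the p23 protein that stabilises ATP-bound HSP90, fell by 0.49 on the log2 scale (adjusted p = 3.76e-07 by edgeR) and FKBP5, an immunophilin of steroid receptor complexes, fell by 0.25 (adjusted p = 8.02e-05). SUGT1 and CDC37, adaptors that bring clients to HSP90, rose by 0.30 and 0.25 (adjusted p = 1.37e-05 and 1.51e-05), and in TPM by 0.13 and 0.15. Of 6 nucleotide exchange factors and BAG proteins none was higher and 3 were lower, BAG4 at -0.24, BAG2 at -0.22 and BAG3 at -0.11 (adjusted p = 0.0031, 0.000533 and 0.0382), of which the call of BAG3 was lost under 10 of 18 alternatives and that of BAG4 without the block for the Set (adjusted p = 0.0623), while BAG2 was at -0.15 with an offset for GC content. Of 9 further J-domain genes 2 were higher, 3 lower and 4 neither, from DNAJB4 at -0.25 to DNAJA4 at 0.26, and DNAJB4 was not called in TPM, at -0.020, or with the offset for GC content, at -0.11. Of 7 other cytosolic HSP70 and HSP110 genes 3 were called higher, including HSPA4 at 0.14, which was -0.030 and not called in TPM, and HSPA14, a ribosome-bound HSP70, was lower at -0.25 (adjusted p = 0.00152). HSPB8, the only other small heat shock protein with enough counts, fell by 0.44 (adjusted p = 0.000403), opposite in sign to HSPB1.

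In the folding machines beside the members, TRiC and prefoldin had 7 of 14 genes higher and 3 lower (median 0.069), from PFDN4 at -0.45 to PFDN6 at 0.30, both prefoldin subunits, which were at -0.28 with the offset for GC content and at 0.20 with that for transcript length. The mitochondrial chaperones and proteases other than HSPD1 and HSPE1 had 5 of 10 higher and 3 lower (median 0.14). HSPA9, the mitochondrial HSP70, fell by 0.15 (adjusted p = 0.000657 by edgeR), and LONP1 and TRAP1, a matrix protease and the mitochondrial HSP90, rose by 0.23 and 0.22 (adjusted p = 0.000141 and 6.74e-05), while in TPM LONP1 was at 0.15 and TRAP1 at 0.080 and not called. Of 15 ER chaperones 14 were higher and HSPA13 lower, the latter not called without the block for the Set or with the offset for GC content, with a median of 0.44 and the highest values in PDIA4 at 0.60 and DNAJB11 at 0.57 (adjusted p = 8.94e-09 and 1.88e-07). HSPA5, the ER member of the HSP70 family, rose by 0.27 (adjusted p = 1.11e-05) and by 0.18 in TPM, while HSPA1B of the cytosol fell by 0.46 on the log2 scale.

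**Figure D5:**
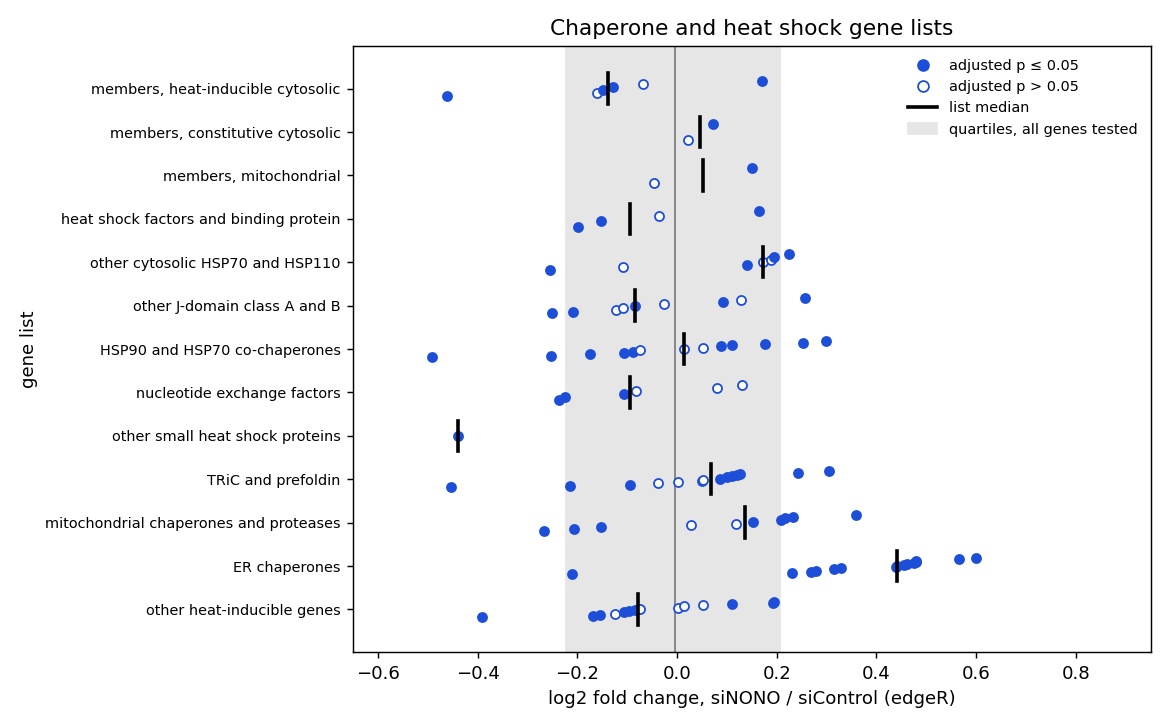
Log2 fold change of siNONO over siControl from edgeR on the count scale for each tested gene of the lists, 1 row per list, with filled circles at an adjusted p of at most 0.05 and a black bar at the list's median. The grey band spans the quartiles of all 17000 genes, and the ER chaperones lie mostly to its right with a median of 0.44, while the heat-inducible cytosolic members have a median of -0.14. HSPA8, HSP90AB1, HSPA4 and CCT6A lie above 0 here and were below it, uncalled, in TPM. A gene that is in more than 1 list is drawn in each of their rows.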

How the data were processed

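RNA-seq of 6 libraries of HCT116 cells was used. The authors checked reads with FastQC (0.11.8), trimmed them with sickle (1.33), aligned them with STAR (2.5.3a_modified) to GENCODE 34 on GRCh37 and ran RSEM (1.3.1). The authors deposited estimated counts, unnormalized, in which RSEM shares multi-mapping reads among genes, and TPM, which RSEM divides by effective length and scales to a common sum. Libraries came from a stranded kit.

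Estimated counts were rounded and tested with edgeR (4.0.16, quasi-likelihood in the edgeR 3 form, R 4.3.3), TMM, a filterByExpr filter and a block for the Set, after the edgeR-with-batch design of the methods, with Benjamini-Hochberg adjustment over 17000 genes at 0.05. That the Set is the batch is an assumption. Intervals are 95% intervals from the total degrees of freedom of that fit, the residual ones plus those edgeR adds by sharing information between genes. Per-Set changes are ratios of scaled CPM. Symbols were found for 99.55% of identifiers. HSPB11 and PECAM1 were not matched by symbol and are not analysed here. GRCh37 positions came from GENCODE 44. The members and lists were chosen with earlier results of these data known. Genes named beside the members were NONO, the heat shock factors, and at most the 4 highest and 4 lowest called genes of a list. Alternatives used DESeq2 (1.42.0), limma (3.58.1) on log2(TPM + 1) or log2(TPM + 0.1), other scalings and filters, no block, summed rows, and each library left out.

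The biological coefficient of variation was 3.51%, and 2.48% to 3.54% for the 9 highly counted members. With counts simulated for the comparison of siNONO with siControl, 50 genes changed at each size among 16795 tested, the test recovered 46% of changes of 0.2 and 90% of changes of 0.5 on the log2 scale, with 10 false calls. Every pair of replicates differed beyond sampling noise, with a chi-square of 2.82 to 9.87 per degree of freedom, so each counted as 1 sample. The Set numbers come from the labels, and the correlation of deviations of same-numbered libraries was 0.289, 0.171 and 0.412 in Sets 1, 2 and 3 over 12252 genes. Between siControl of Set 1 and siNONO of Set 2 it was 0.139, and between siControl of Set 2 and siNONO of Set 1 it was 0.114. Sets 1 and 2 are thus not clearly told apart by it, while different-numbered pairs with a library of Set 3 were below 0. Deviations were taken from the mean of each group and sum to 0 over its 3 libraries. A value above 0 for 1 pair thus pulls others below 0, so the values below 0 are not separate evidence of pairing. The submitters describe 3 biological replicates, and whether they were separate thaws or days was not given in the sources used here.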

Additional observations from a re-analysis of the deposited data

How the results depend on the processing

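The falls of HSPA1B (-0.55 to -0.41) and HSP90AA1 (-0.24 to -0.11) kept their direction and their call under every alternative that gave a value, 17 and 18 of them. The 3 ratios within libraries fell in every Set, so leaving out a library, and with it its Set, could not change their direction. Without the replicate block 6164 genes were called, 1 member was higher and 2 were lower, as HSPH1, HSPB1 and HSPA8 lost their calls, and 44 other chaperone genes were called in place of 63. DESeq2 with the block called 5206 genes, and limma on log2(TPM + 1) and log2(TPM + 0.1) called 5257 and 5250, in place of 7924. In both limma fits 0 members were higher and 5 lower, HSPA8 was at -0.023, HSP90AB1 at -0.069, HSPA4 at -0.030 and CCT6A at -0.031. The median log2 fold change over all genes tested was itself at -0.071 and -0.090 in these fits. With an offset on transcript length 1 member was higher, and with an offset on GC content HSPD1 was at 0.0091 and 4 members were lower, DNAJB1 being added, both offsets being chosen after seeing the data. The difference of medians between inducible and constitutive members was -0.16 with limma on log2(TPM + 1) and -0.16 with the length offset. Leaving out 1 library at a time gave 6497 to 7653 genes called, 2 to 3 members higher, 2 to 5 lower and a difference of medians of -0.18 to -0.15. Without siControl or siNONO replicate 3, 5 members were lower, DNAJB1 and HSPD1 being added, the difference of medians was -0.15 for each, and HSP90AB1, which ran from -0.013 to 0.059 over the libraries left out, was below 0 for each. The cause of these shifts was not tested. With the block, a library whose partner is left out adds nothing to the comparison.

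Depth limits HSPA1A, with at most 105 counts per library. For the other 9 members the spread between 3 Sets is a limit, and so is the choice of scale, with which HSPA8 and HSP90AB1 changed sign. Changes near 0.1 on the log2 scale in HSPA8, DNAJB1, HSPD1 and HSPH1 move across the threshold with the choice of scale, block or library. HSPE1 and HSPB1 were not called with a correction for transcript length.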
